A study of Cervus nippon with 12 samples.

Results

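The miR-181 family was followed in 12 small RNA libraries of sika deer (Cervus nippon) antler cells. Its members were chosen by name, as every entry of the form bta-miR-181 with any letter or arm suffix, so the rule itself uses only whether a name is listed. The family was picked with earlier results of these data known, and its pattern is therefore a description and no independent evidence. This gave 4 members, miR-181a, miR-181b, miR-181c and miR-181d, of 475 miRNAs with cattle names and 545 miRNAs in all. The names are those of cattle miRNAs to which deer reads were assigned, with no arm given, and the genomic copies behind one name cannot be told apart.

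Reserve mesenchyme cells (RMCs), the progenitor cells at the antler tip, were examined before induction (CP_0) and after 7 days (CP_7) or 14 days (CP_14) in chondrogenic medium, next to antler chondrocytes (CC), with 3 libraries per group. All cells were labelled wild type (WT) and, per the study's methods, came from male sika deer aged 3 years. For induction, 500000 cells were kept in a centrifuge tube and the medium was renewed every 2 days. The study's methods report 3 biological replicates per tissue type, but no label ties a library to an animal or culture. The p-values therefore describe the spread between these libraries, which may be technical. In a culture, fewer cells of a type and less RNA per cell cannot be told apart.

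MicroRNAs are short RNAs that guide Argonaute proteins to messenger RNAs, mainly through the seed near their 5′ end, and lower the output of those messages. The members of the miR-181 family share one seed and so have largely shared predicted targets. In mammals the hairpins of miR-181a and miR-181b lie side by side in common primary transcripts, and those of miR-181c and miR-181d form another such pair. The family is best known in lymphocyte development, where miR-181a tunes the sensitivity of the T cell receptor, and it has also been studied in muscle and cartilage differentiation.

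Library depth ran from 539455 reads in CP_7 replicate 3 to 10256572 reads in CC replicate 1, with CP_7 the shallowest group and CC the deepest. A large part of each library was miR-21-5p, an abundant miRNA of cultured mesenchymal cells, which took 75.2% ± 2.04 of reads in CC, 60.3% ± 1.22 in CP_0, 48.2% ± 4.95 in CP_14 and 23.2% ± 1.62 in CP_7 (SD, n = 3 each). A miRNA's reads per 1000000 (RPM) therefore move with miR-21-5p, and levels below are RPM divided by TMM factors, which bring the bulk of miRNAs to a common level, unless plain RPM or reads are named. The cartilage miRNAs miR-140 and miR-455 were present in every library, with a summed level of 16883 to 18399 in CC, 9851 to 11399 in CP_0 and CP_14, and 5083 to 5764 in CP_7. In plain RPM the groups overlapped, at 10110.5 to 11383 in CC, 9043 to 10582 in CP_0, 9610 to 10384 in CP_14 and 9710 to 11415 in CP_7. The differences in summed level thus come with the TMM factors.

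The family made up 0.653% ± 0.0468 of all reads in CP_7, 0.265% ± 0.00934 in CP_14, 0.0758% ± 0.00173 in CC and 0.0581% ± 0.00309 in CP_0 (SD, n = 3 each). With miR-21-5p reads left out of the total, these shares were 0.852%, 0.515%, 0.306% and 0.147%. On either count CP_7 was highest, CP_14 next, then CC, and CP_0 lowest. In every library the reads fell in the order miR-181a, miR-181b, miR-181d, miR-181c.

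MiR-181a, the most abundant member, had a level of 513, 553 and 507 in CP_0 replicates 1 to 3, and of 2589, 2809 and 2132 in the CP_7 replicates. In CP_14 it stood at 2111, 2125 and 2429, and in CC at 1162, 1059 and 1022. CP_7 and CP_14 overlapped each other, while CC lay below both and above CP_0 without overlap. Among all miRNAs of a library, ordered by reads, it held places 22 to 26 in CP_14, 23 to 25 in CP_7, 36 to 38 in CC and 46 to 53 in CP_0.

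MiR-181b, its neighbour in the genome, had a level of 118, 125 and 111 in CP_0, and of 852, 1008 and 686 in CP_7. In CP_14 it stood at 405, 391 and 502, and in CC at 179, 164 and 159. No pair of groups overlapped in level, and the groups ran from CP_0 through CC and CP_14 to CP_7. In plain RPM miR-181b overlapped between CP_0 (95.1 to 109.6) and CC (98.1 to 103.5). Its place in a library was 43 to 44 in CP_7, 56 to 58 in CP_14, 84 to 87 in CC and 86 to 91 in CP_0.

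MiR-181d had a level of 19.2, 19.0 and 18.3 in CP_0, rising to 82.1, 78.8 and 59.4 in CP_7. It stood at 14.7, 14.5 and 11.9 in CP_14 and at 8.54, 14.8 and 10.5 in CC. Unlike the more abundant members, its CP_14 libraries all lay below its CP_0 libraries, and CC overlapped CP_14. These levels rest on 42 to 137 reads per library, against 1417 to 8776 for miR-181a.

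MiR-181c was near the limit of detection, with 3 to 16 reads per library. Its level was 2.54, 2.02 and 2.57 in CP_0, then 2.63, 8.05 and 10.6 in CP_7, 2.10, 2.91 and 2.49 in CP_14, and 0.523, 1.89 and 2.47 in CC. The CP_7 libraries ranged from 4 to 14 reads, and the lowest of them was barely above the highest of CP_0. At this depth little can be read from miR-181c alone: 3 reads, the upper limit that a count of 0 allows, correspond to 2.91 to 5.56 plain RPM in the CP_7 libraries.

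**Figure D1:**
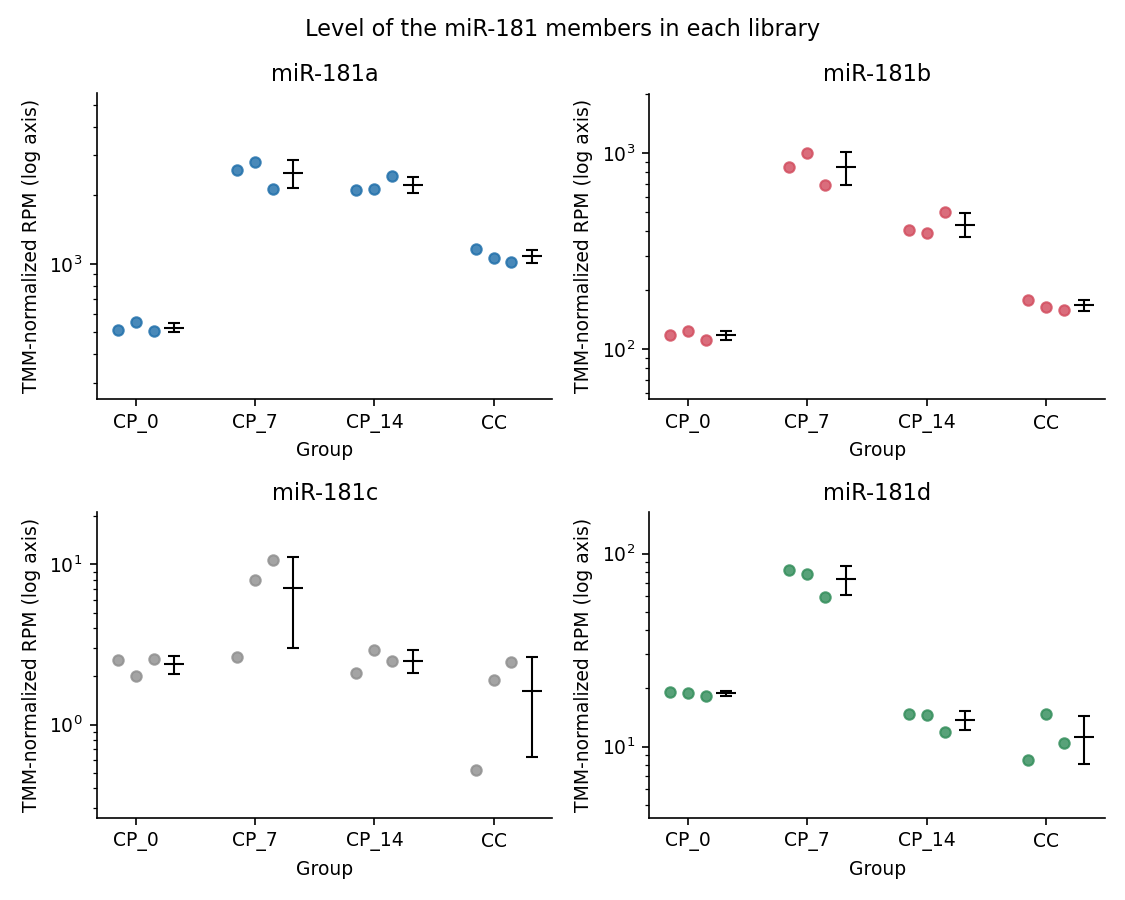
Level of each miR-181 member in each library, as TMM-normalized RPM on a log axis, with the 3 replicates of a group from left to right and the mean ± SD beside them. MiR-181a stays near its CP_7 level in CP_14 (2111 to 2429), miR-181b falls part of the way (391 to 502), and miR-181d returns to 11.9 to 14.7, below its CP_0 libraries.

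The first question of the design was how miRNAs change over the first week of chondrogenic induction. Between CP_0 and CP_7, 3 of the 4 members rose and none fell. The background was high, since 35.8% of the 246 miRNAs tested in this comparison passed the test in the upward direction (limma, Benjamini-Hochberg adjusted p below 0.05 over all miRNAs tested). MiR-181b rose 7.33-fold, a log2 fold change of 2.87 ± 0.14 (SE; adjusted p = 4.23e-06, limma). MiR-181a rose 4.93-fold, a log2 fold change of 2.30 ± 0.12 (adjusted p = 4.36e-06, limma), and miR-181d rose 3.88-fold (1.96 ± 0.19 on the log2 scale, adjusted p = 0.000114, limma). The rarest member, miR-181c, had a log2 fold change of 1.20 ± 0.49 and did not pass (adjusted p = 0.0649, limma), with a 95% interval from 0.05 to 2.34.

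Ordered by fold change, miR-181b was number 7 from the top of the 246, miR-181a number 19, miR-181d number 35 and miR-181c number 59. The median log2 fold change of the 4 members was 2.13, beside 0.07 over all miRNAs tested. For miR-181c the call turned on the setting. It passed without CP_7 replicate 1 (log2 fold change 1.5, adjusted p = 0.0083, limma), with library size alone (2.06, adjusted p = 0.00983, limma), with all 12 libraries in 1 fit (1.11, adjusted p = 0.0389, limma) and, on whole reads, in the quasi-likelihood test of edgeR (1.58, adjusted p = 0.0329).

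**Figure D2:**
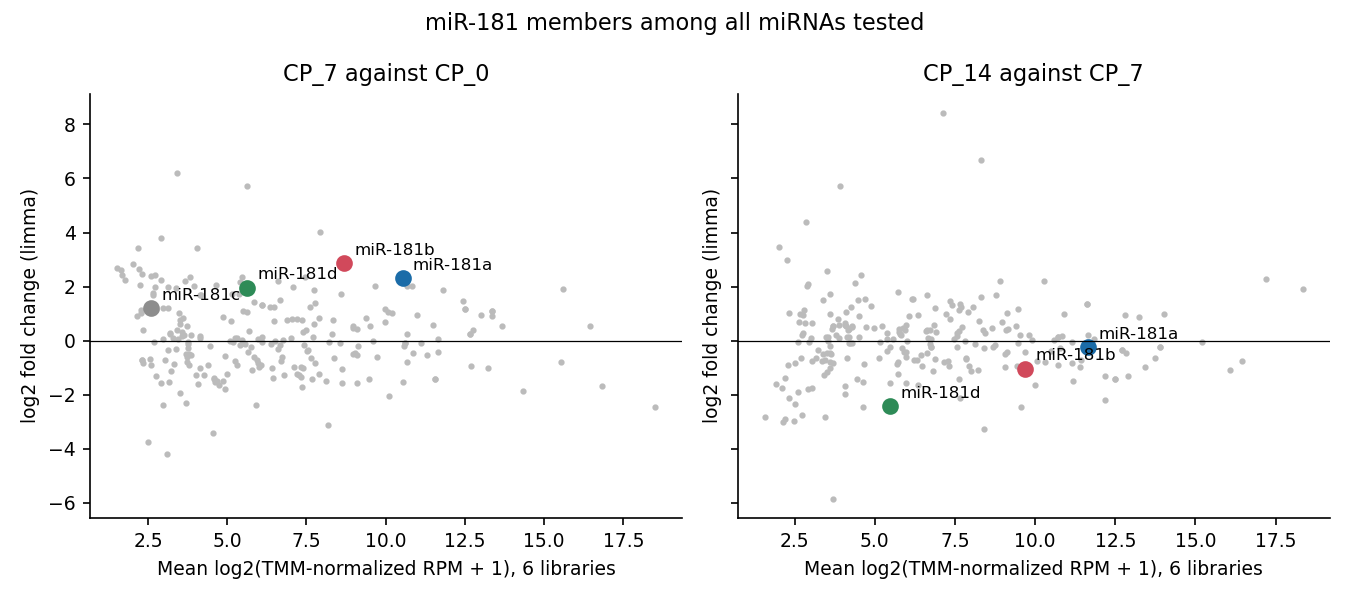
Log2 fold change (limma) against mean log2(TMM-normalized RPM + 1) over the 6 libraries of a comparison, one point per miRNA tested, with miR-181 members coloured. At day 7 against day 0 the labelled members lie above 0, from 1.20 for miR-181c to 2.87 for miR-181b. At day 14 against day 7 they spread from -0.25 for miR-181a to -2.43 for miR-181d, and miR-181c did not reach the count filter.

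From day 7 to day 14 the members separated. MiR-181d fell 5.39-fold, a log2 fold change of -2.43 ± 0.21 (SE; adjusted p = 8.27e-05, limma), and was number 11 from the bottom of 246 miRNAs. MiR-181b fell 2.06-fold (-1.04 ± 0.15 on the log2 scale, adjusted p = 0.00119, limma). MiR-181a did not pass the test, with a log2 fold change of -0.25 ± 0.12 (adjusted p = 0.112, limma) and a 95% interval from -0.53 to 0.03. MiR-181c did not reach the count filter in this comparison. It was called lower with all 12 libraries in 1 fit (-1.06 on the log2 scale, adjusted p = 0.0497, limma) and without CP_7 replicate 1 (-1.62, adjusted p = 0.00677, limma), and it did not pass with the filter dropped (-1.17, adjusted p = 0.159, limma). The 2 members that fell are of 3 tested, where 28.5% of all miRNAs tested passed in that direction, and the median was -1.04 for the 3 beside -0.01 over all.

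The net change over the induction, CP_14 against CP_0, uses the same libraries as the 2 steps above and adds no new samples. MiR-181a remained 4.28-fold higher at day 14 than before induction (2.10 ± 0.08 on the log2 scale, adjusted p = 1.12e-06, limma). MiR-181b was 3.67-fold higher (1.88 ± 0.11, adjusted p = 1.5e-05, limma). MiR-181d had a log2 fold change of -0.42 ± 0.16 that did not pass (adjusted p = 0.0619, limma), with a 95% interval from -0.78 to -0.05, although its groups did not overlap. Here 2 of the 3 members tested passed upward, where 24.8% of 250 miRNAs did. Under upper-quartile scaling the lower level of miR-181d did pass, at -0.66 (adjusted p = 0.00733, limma).

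Comparing chondrocytes with day 14 cells set the induced cells beside the cartilage cells of the antler. MiR-181a was 2.06-fold lower in CC than in CP_14, a log2 fold change of -1.05 ± 0.07 (adjusted p = 1.12e-06, limma). MiR-181b was 2.58-fold lower (-1.36 ± 0.10 on the log2 scale, adjusted p = 1.98e-06, limma). The rarer members did not pass, with log2 fold changes of -0.29 ± 0.22 for miR-181d (95% interval -0.79 to 0.21, adjusted p = 0.252, limma) and -0.44 ± 0.30 for miR-181c (95% interval -1.12 to 0.24, adjusted p = 0.204, limma). The 2 called of 4 compare with 37% of 276 miRNAs called lower, and the median of the 4 was -0.74 beside 0.09 over all.

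Against the day 7 peak, all 4 members were lower in CC, where 38.4% of 276 miRNAs were called in that direction. The log2 fold changes were -2.89 ± 0.26 for miR-181d, -2.59 ± 0.12 for miR-181b and -1.48 ± 0.10 for miR-181a (adjusted p from 3.44e-06 to 7.56e-05, limma). The sizes for miR-181a and miR-181b were smaller without CP_7 replicate 2, at -0.88 and -1.94 (adjusted p = 0.00772 and 0.000527, limma). They were also smaller without CP_7 replicate 1, at -1.07 and -2.20 (adjusted p = 0.0224 and 0.00109, limma). The median over all miRNAs tested moved from -0.09 to 0.42 and 0.21 in these fits, so much of the shift was shared with other miRNAs. MiR-181c, at -1.76 ± 0.53 (adjusted p = 0.0204, limma), no longer passed without CP_7 replicate 2 (-1.19), without CP_7 replicate 3 (-1.22) or without CC replicate 1 (-1.43).

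Against uninduced cells the members went opposite ways with TMM scaling. MiR-181a was 1.88-fold higher in CC than in CP_0 (0.91 ± 0.06 on the log2 scale, adjusted p = 4.9e-05, limma) and miR-181b 1.29-fold higher (0.37 ± 0.07, adjusted p = 0.00452, limma). MiR-181d was 1.77-fold lower (-0.82 ± 0.20 on the log2 scale, adjusted p = 0.0125, limma), and miR-181c at -0.45 ± 0.29 did not pass (adjusted p = 0.241, limma). Of 260 miRNAs tested, 30% were called higher and 25.8% lower. The higher level of miR-181b holds only relative to the bulk of miRNAs, since with scaling by library size alone its log2 fold change was -0.04 (adjusted p = 0.77, limma).

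**Figure D3:**
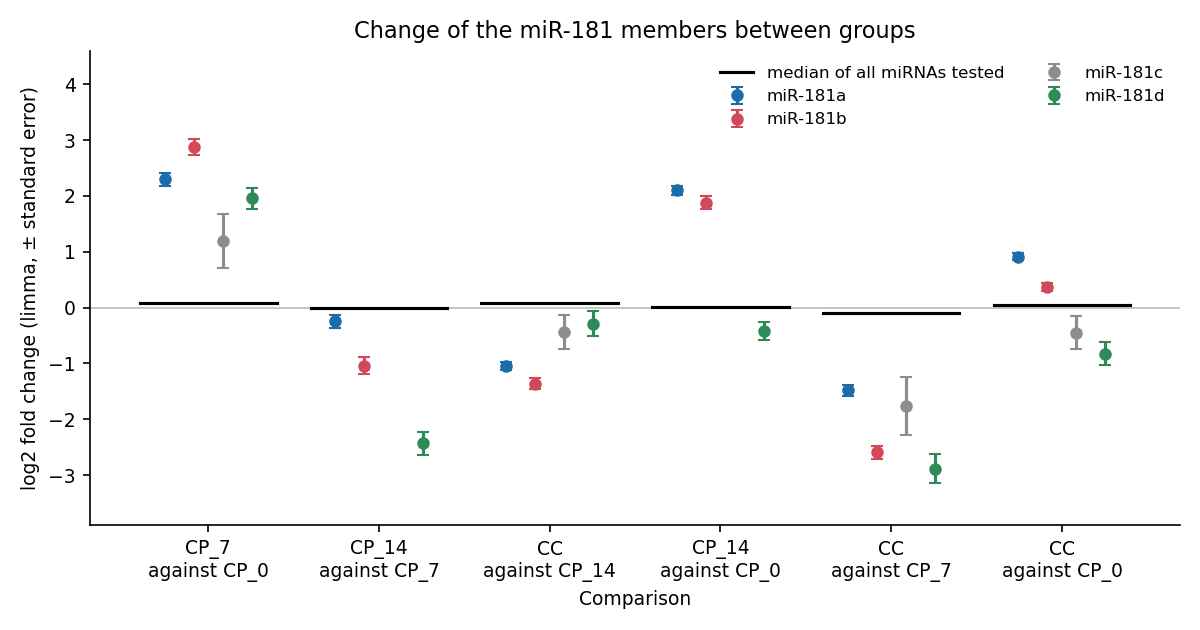
Log2 fold change ± SE (limma) of each miR-181 member in the 6 comparisons, with a black line at the median of all miRNAs tested. With TMM scaling miR-181a and miR-181b lie on the same side of 0 in each comparison, although miR-181b in CC against CP_0 is at -0.04 with library size alone, and miR-181d is at -0.42 and -0.82 in CP_14 and CC against CP_0, where miR-181a is at 2.10 and 0.91. MiR-181c has no point where it did not reach the filter.

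With TMM scaling, the order of the levels can be given for each member from these fits. For miR-181a it was CP_0, CC, CP_14, CP_7 from low to high, and the last pair of neighbours did not differ beyond their spread. For miR-181b the same order held with each neighbouring pair passing the test. With library size alone, however, CC against CP_0 did not pass for miR-181b (-0.04 on the log2 scale, adjusted p = 0.77, limma). For miR-181d the order was CC, CP_14, CP_0, CP_7, in which neither CC and CP_14 nor CP_14 and CP_0 passed, while CC and CP_0 did.

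Because comparisons between libraries depend on scaling, the make-up of the family was also taken within each library, as a member's share of all miR-181 reads. This quantity needs no scaling between libraries. MiR-181a held 78.6, 79.1 and 79.3% of the family's reads in CP_0, a mean of 79.0% ± 0.39 (SD, n = 3), and 73.1% ± 0.99 in CP_7. It held 83.2% ± 0.71 in CP_14 and 85.7% ± 0.33 in CC. Since miR-181a and miR-181b together held nearly all of the family's reads, the share of miR-181b mirrored it by arithmetic. That share was 24.6% ± 1.09 in CP_7, 17.8% ± 0.35 in CP_0, 16.2% ± 0.82 in CP_14 and 13.3% ± 0.06 in CC.

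The share of miR-181d was 2.84% ± 0.11 in CP_0 and 2.13% ± 0.17 in CP_7, and then 0.520% ± 0.10 in CP_14 and 0.901% ± 0.28 in CC (SD, n = 3 each). Thus its lowest share was at day 14, after its highest level at day 7. MiR-181c held 0.360% ± 0.06 in CP_0, 0.216% ± 0.15 in CP_7, 0.133% ± 0.09 in CC and 0.0941% ± 0.02 in CP_14.

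Of 16 shares compared between groups, 4 members in each of 4 comparisons, the 3 steps and CP_14 against CP_0, every one of miR-181a, miR-181b and miR-181d separated the groups without overlap. Each of these gave p = 0.1 in a two-sided exact permutation test, the smallest that 3 against 3 allows, and 0.123 after Benjamini-Hochberg adjustment. The design therefore cannot reach 0.05 for them. The shares of a library add up to a whole, and miR-181a and miR-181b hold nearly all of it. Their separations are therefore not independent of each other. MiR-181c overlapped in the 3 steps (exact permutation p from 0.2 to 0.6) and was lower without overlap in CP_14 against CP_0 (exact permutation p = 0.1).

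Put as ratios of reads, there were 2.98 ± 0.17 miR-181a reads per miR-181b read in CP_7, 4.45 ± 0.11 in CP_0, 5.16 ± 0.30 in CP_14 and 6.46 ± 0.04 in CC (SD, n = 3 each). The replicates of CC differed least, at 6.42 to 6.49. For 100 reads of miR-181b there were 16.0 ± 0.64 reads of miR-181d in CP_0, 8.70 ± 0.91 in CP_7, 6.80 ± 2.13 in CC and 3.24 ± 0.75 in CP_14. MiR-181b and miR-181d have nearly identical mature sequences, so reads could be assigned to either, and the values of miR-181d are uncertain to that extent. Over the libraries the ratio ranged from 2.37 to 16.5 per 100. Between the genomic neighbours miR-181d and miR-181c the ratio of reads was 7.13 to 9.43 in CP_0 but 5.58 to 31.3 in CP_7, where it rests on 4 to 14 miR-181c reads.

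**Figure D4:**
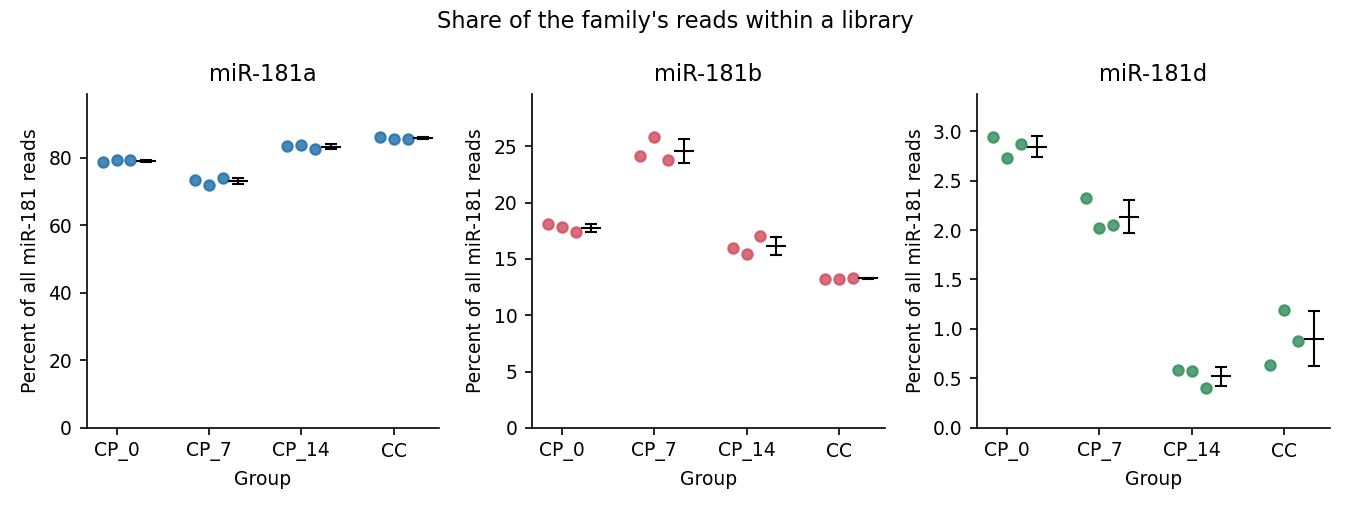
Percent of all miR-181 reads of a library held by miR-181a, miR-181b and miR-181d, 3 libraries per group with the mean ± SD beside them and each axis starting at 0. The share of miR-181b peaks in CP_7 (24.6%), that of miR-181a is lowest there (73.1%), and that of miR-181d is lowest in CP_14 (0.520%).

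Scaling shifted the fold changes of the family together with those of the other miRNAs. With library size alone, the median log2 fold change of all miRNAs tested moved from 0.07 to 1.12 in CP_7 against CP_0, and miR-181a moved from 2.30 to 3.37. Relative to the median, miR-181a was then at 2.25, beside 2.23 with TMM, and miR-181b at 2.82 beside 2.80. In CP_14 against CP_7 the median moved from -0.01 to -0.84, and miR-181a, at -1.11, then passed the test (adjusted p = 1.47e-05, limma), while relative to the median it was at -0.28 beside -0.24 with TMM. Library size alone also moved miR-181b to -1.91 in CP_14 against CP_7, miR-181a to -1.76 and miR-181b to -2.07 in CC against CP_14, and miR-181a to 0.50 in CC against CP_0. In CC against CP_7 it put miR-181a at -2.87 and miR-181b at -3.98, and upper-quartile factors put miR-181a at -0.96, while relative to the median miR-181a was at -1.43 and -1.36, beside -1.39 with TMM. In CC against CP_0 miR-181b was 0.29 above the median with library size alone and 0.32 with TMM.

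The background moved as well. Of the miRNAs called in CP_7 against CP_0, 56.1% were higher with TMM, 42.8% with upper-quartile factors, 44.1% with miR-21-5p left out and 88.4% with library size alone. Upper-quartile factors also changed that share from 53.9 to 35.5% in CP_14 against CP_0 and from 43.0 to 60.1% in CC against CP_7. With library size alone it was 15.9% in CP_14 against CP_7 (46.2% with TMM), 19.7% in CC against CP_14 (50.5%), 69.7% in CP_14 against CP_0, 9.48% in CC against CP_7 and 21.1% in CC against CP_0 (53.8%).

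**Figure D5:**
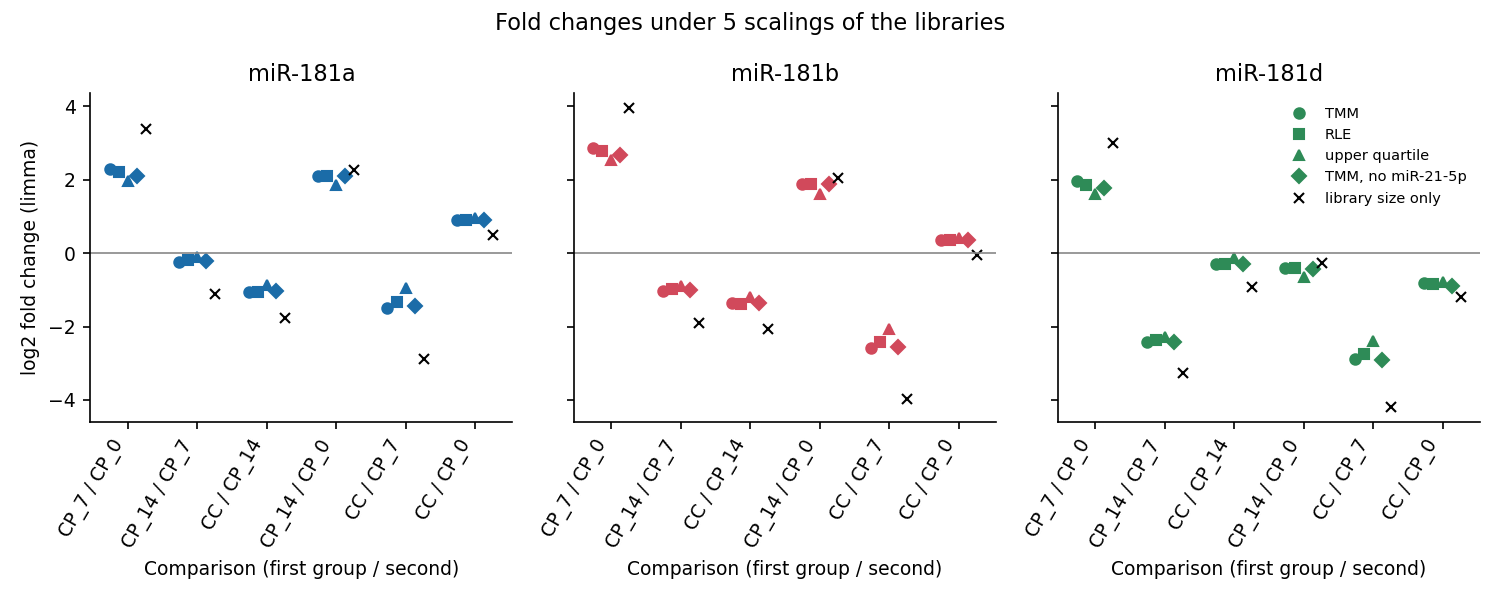
Log2 fold change (limma) of miR-181a, miR-181b and miR-181d in the 6 comparisons under 5 ways of scaling the libraries, with a cross for library size alone. The crosses stand apart most where CP_7 is compared, such as 3.37 against 2.30 for miR-181a at day 7, and the sign changes only for miR-181b in CC against CP_0 (0.37 to -0.04).

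The miRNAs with patterns most like those of the main members were taken by Pearson's r of log2(TMM-normalized RPM + 1) over the 12 libraries, among 283 other miRNAs that passed the filter over the 4 groups. These libraries fall into 4 groups and share their scaling, so r is given as a description. For miR-181a the closest were miR-1 (r = 0.943), a muscle miRNA, then miR-181b (0.940), miR-29d-5p (0.936), miR-29c (0.933) and miR-26b (0.926). For miR-181b they were miR-26b (0.988), miR-30b-5p (0.964), miR-29b (0.961), miR-328 (0.946) and miR-1 (0.942).

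The miR-26b level was 528 ± 15.9 in CP_0, 563 ± 5.73 in CC, 937 ± 46.9 in CP_14 and 1151 ± 121 in CP_7 (SD, n = 3 each), the same order of groups as miR-181b with smaller steps. MiR-1 stood at 641 ± 82.3, 1149 ± 63.3, 1610 ± 73.0 and 2630 ± 931 in the same groups. Its replicates in CP_7 were far more spread than those of miR-181a, whose SD there was 345 on a mean of 2510.

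A list of miRNAs studied in cartilage, with 24 names of which 23 were tested, gave the setting. At day 7 against day 0, 14 of these rose and 5 fell, with a median log2 fold change of 0.75, where 35.8% of all miRNAs tested rose and 28% fell. At day 14 against day 7, 4 rose and 13 fell, with a median of -0.34, beside 24.4% and 28.5% of all. In CC against CP_14, 11 were higher and 8 lower, with a median of 0.19, beside 37.7% and 37% of all. With library size alone 18 were higher and 2 lower in the first step, 2 and 19 in the second, and 3 and 14 in CC against CP_14. Over all miRNAs tested, that scaling gave 152 higher and 20 lower of 246 in the first step. It gave 26 and 138 of 246 in the second, and 40 and 163 of 276 in CC against CP_14. MiR-140, the main cartilage miRNA, had log2 fold changes of -1.03 ± 0.08, 0.87 ± 0.07 and 0.78 ± 0.05 in these steps (adjusted p from 1.23e-06 to 6.18e-05, limma), each of the opposite sign to miR-181b. With library size alone miR-140 was at 0.05, 0.002 and 0.07 and passed in none of the 3, whereas miR-181b passed at 3.94, -1.91 and -2.07.

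Markers of other cells differed between libraries. The 7 blood and lymphoid names (miR-142-3p, miR-142-5p, miR-144, miR-150, miR-223, miR-451 and miR-486) summed to a level of 18.5 and 17 in CP_0 replicates 1 and 2 but 4932 in CP_0 replicate 3. The sums were 3753 to 5086 in CP_14, 2143 to 2625 in CC and 11.8 to 96.6 in CP_7. In reads they were 15359 in CP_0 replicate 3, 13557 to 14516 in CP_14 and 13899 to 15054 in CC. These reads stayed close although depth ran from 2791559 in CP_14 replicate 1 to 10256572 in CC replicate 1. The lower level in CC than in CP_14 therefore goes with depth and scaling. Why these reads did not rise with depth was not tested. Most of each high sum was miR-451 and miR-486, as in CP_14 replicate 1 with 6431 and 7992 of 14516 reads. There miR-142-5p had 65 reads, miR-150 had 18, miR-223 had 10, and miR-142-3p and miR-144 had 0. By its high sum CP_0 replicate 3 stood apart from its group. Its miR-181a level of 507 and miR-181b level of 111 were the lowest of the 3. Without that library the log2 fold changes at day 7 were 2.25 for miR-181a, 2.81 for miR-181b and 1.91 for miR-181d, and each passed (adjusted p from 4.66e-05 to 0.000659, limma). All CP_14 and CC libraries also had high blood sums, and the part of blood cells in the miR-181 values was not tested.

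The endothelial miR-126, both arms summed, was at 1474 in the highest and 95.2 in the lowest CP_7 library and at 50.7 to 81.7 in the other groups. Its 1663 reads in CP_7 replicate 3 came with the highest miR-181c level, 10.6, and the lowest CP_7 levels of miR-181a, miR-181b and miR-181d. The 4 muscle names (miR-1, miR-133a, miR-133b and miR-206) summed to 621 to 798 in CP_0, 1156 to 1285 in CC, 1660 to 1803 in CP_14 and 2169 to 3937 in CP_7. Most of each sum was miR-1, as in CP_7 replicate 2 with 6427 of 6845 reads. Since miR-1 was picked above as closest to miR-181a, the shared order of groups adds nothing separate. MiR-206 had 263, 7 and 0 reads in the CP_7 replicates. Of the 4 muscle names, 3 rose at day 7, where 35.8% of all miRNAs tested rose. With upper-quartile factors 2 rose, beside 65 of all 246 miRNAs tested. The part of muscle-like or endothelial cells in the miR-181 values was not tested. The 6 epithelial names (miR-141, miR-200a, miR-200b, miR-200c, miR-205 and miR-429) summed to 1.97 to 7.98 in CP_7, where the members peaked, and to 19.7 to 47.8 in the other groups. Of these, miR-200a fell at day 7, with a log2 fold change of -3.74 (adjusted p = 0.000339, limma), and miR-200a and miR-200b rose from day 7 to day 14. In reads, miR-200a was at 77 in CP_0 replicate 3, 74 to 80 in CP_14 and 76 to 82 in CC, again close across depths. The part of epithelial cells was not tested either.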

How the data were processed

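Small RNA libraries (NEBNext, Illumina NovaSeq) were made from total RNA. The authors deposited RPM per miRNA and library, in a column headed tpm. The submitters' processing notes name CASAVA, bcl2fastq 1.8.4 and Bowtie. The miRNA reference, the mismatches allowed and the handling of reads that match several members are unknown, being not given in the sources used here. Whole reads were recovered from the RPM steps (100% of values within 0.01 read of a whole number). Groups followed the sample titles. MiRNAs passing filterByExpr (edgeR 4.0.16, minimum count 10, minimum total 15) were tested as log2(TMM RPM + 1) with limma 3.58.1 (trend) in R 4.3.3, for each pair of groups on its 6 libraries, two-sided, with Benjamini-Hochberg adjustment over all miRNAs tested. Fold changes understate low miRNAs because of the pseudocount of 1. Levels shown use TMM factors over the 12 libraries, so their ratios differ from the fitted folds. In CC against CP_7, with all 12 libraries in 1 fit, the log2 fold changes were -1.21 for miR-181a and -2.32 for miR-181b. On the 6 libraries they were -1.48 and -2.59.

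Other scalings, filters, pseudocounts, tests (edgeR, DESeq2 1.42.0) and left-out libraries were alternatives. Replicate numbers come from the sample titles, and in CC against CP_7 each same-numbered pair had a weak positive correlation of deviations (0.133, 0.116 and 0.171). A fit with that number as a block was one alternative. No replicate pair of libraries agreed within sampling noise. The fits were tested on simulated data. Members and lists were chosen with earlier results of these data known, so their pattern is no independent evidence. The members, the 5 most similar miRNAs for each of miR-181a and miR-181b, and up to 3 of the cartilage list were named by rule. Markers are named as lists. Depth is given with the report. Limits from counts cover counting error only, since reads carry no molecular identifiers.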

Additional observations from a re-analysis of the deposited data

How the results depend on the processing

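The rises of miR-181a and miR-181b at day 7 and their higher level at day 14 than at day 0 passed under each alternative run, as did the fall of miR-181b from day 7 to day 14 and the lower level of both in CC than in CP_14. MiR-181a at day 7 ranged from 1.95 to 3.37 and miR-181b from 2.53 to 3.94 on the log2 scale. With library size alone, miR-181a in CP_14 against CP_7 passed at -1.11 and miR-181b in CC against CP_0 turned to -0.038. That scaling called 4 members lower in CC against CP_14, where 163 of all 276 miRNAs tested were called lower. Asking also for a 2-fold change left 0 members called in CC against CP_0, where limma, edgeR and DESeq2 each called 3 without that demand. With shares taken over miR-181a and miR-181b reads only, the differences for miR-181a were -6.81, 8.92 and 2.11 percentage points for CP_7 against CP_0, CP_14 against CP_7 and CP_14 against CP_0, beside -5.95, 10.2 and 4.21. TMM factors taken after the filter, an alternative chosen after seeing the data, changed no member's call. Of 18 same-number pairs of libraries, 4 had a correlation of deviations over 0.1, among them the 3 of CC against CP_7. Over all pairs it ran from -0.293 to 0.171, and 2 of 12 libraries lay closest to their own number. These values are too weak to settle whether the numbers pair the libraries in any comparison. With the replicate number as a block, 3, 2, 2, 2, 4 and 3 members were called in the 6 comparisons, as without it. Over all miRNAs the block fits called 151 of 246, 100 of 246, 189 of 276, 105 of 250, 189 of 276 and 118 of 260. MiR-181c, at 3 to 16 reads, is limited by depth. On whole reads, edgeR called 160 miRNAs in CP_7 against CP_0 and 134 in CP_14 against CP_7, beside 157 and 130 with limma.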
